A study of Homo sapiens with 5 samples.

Results

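BCL2 family genes encode the proteins that set the threshold for mitochondrial cell death. The 10 genes described here, of 60651 in the count tables, were taken by symbol: the 7 BH3-only genes BMF, BCL2L11, PMAIP1, HRK, BBC3, BID and BAD, and the 3 survival genes BCL2, BCL2L1 and MCL1. All 10 matched a gene identifier, and all 10 passed the filter on low counts. Survival proteins hold the pore-forming effectors BAX and BAK in check on the mitochondrial outer membrane. BH3-only proteins respond to stress by binding the survival proteins, and some of them also activate BAX and BAK directly. In the gut epithelium this balance decides whether cells that lose attachment, growth factors or Wnt signals die.

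The cells were COLO 320DM, an established human colorectal adenocarcinoma line with an amplified MYC locus. Poly(A) RNA was sequenced from 5 libraries, 1 for each siRNA. The USP17 siRNA group held siIDT, sino4 and siSMPLT (numbered 1, 2 and 3), and the control siRNA group held siL2 and siNT (numbered 1 and 2). The series' design text gives siNT and L2 for controls and speaks of duplexes against USP17, a deubiquitinase, for the rest. No label says so of siIDT, sino4 or siSMPLT singly, so these were assigned to USP17 by elimination, and each group difference rests on that assignment. No source used here gives a dose, time or siRNA sequence. The comparison asks how transcripts in these cells differ between USP17 siRNA and control siRNA. No label states that the libraries came from separate cultures, and each library had its own siRNA. The p-values and SDs therefore reflect the spread between these libraries alone. In that spread, differences between siRNAs and technical differences cannot be told apart.

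Libraries held 31704821 to 36276143 reads in genes, so that a count of 0 would allow up to 3 reads, or 0.0827 to 0.0946 CPM (the read count scaled to library size), for counting error only. The 30 genes of the targeted USP17L family had 0 reads on their own strand in every library, controls included. Their RSEM expected counts, which share out multi-mapping reads, were 0 as well. The target RNA was thus not detected in any library, and its knockdown could not be checked. Among colon epithelial markers, CDX2 stood at 1631 to 2098 CPM (lower with USP17 siRNA, past the test) and CDH17 at 27.1 to 52.0 CPM (higher, past the test), while EPCAM was at 1.96 to 2.75 CPM and VIL1 and CDH1 did not pass the filter on low counts. Of 11 leukocyte, fibroblast and endothelial markers, 8 did not pass it either. PTPRC (41.7 to 51.7 CPM) and COL1A1 (12.5 to 16.9 CPM) did, each with overlap between the groups. Reads on no gene made up 7.05% to 7.49% of all reads in the USP17 siRNA libraries and 6.37% to 6.58% in the controls, and the part of that difference in the results was not tested.

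MCL1 RNA dominated the 10 genes, and BID was the most abundant of the 7 BH3-only transcripts in each library. Levels of different genes were compared as TPM (a transcript level that allows for length). MCL1, a short-lived survival protein on which many tumour cells depend, had a median of 746.4 TPM over the 5 libraries, with a range of 596.4 to 783.1. It made up 80.3% to 83.7% of the summed TPM of the 10 genes and 96.4% to 97.3% of that of the 3 survival genes. The related gene BCL2L2, at 37.8 to 49.4 CPM, is not among the 10 and enters neither sum. BID, which caspase-8 cleaves to link death receptors to mitochondria, followed at a median of 65.8 TPM (61.0 to 72.0). BCL2L11 had a median of 30.7 TPM (21.7 to 39.4) and BAD 24.7 TPM (24.0 to 27.5). BCL2L1 stood at 15.5 TPM (14.6 to 17.5), BCL2 at 6.53 (4.76 to 7.09) and BMF at 4.47 (1.9 to 4.99). BBC3 at 2.23 TPM (1.5 to 3.76), HRK at 0.74 (0.60 to 1.81) and PMAIP1 at 0.43 (0.18 to 0.98) were the lowest.

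The ranges of neighbours in this order overlapped for BCL2L11 and BAD, for BCL2 and BMF, and for each step from BMF down to PMAIP1. BCL2L11 was above BAD in all USP17 siRNA libraries and below it in both controls. The order of BMF and BBC3 differed between libraries as well. The deposited TPM of BMF lies below the interval that RSEM gives for it in siL2, siNT and siSMPLT, so its TPM and its place in this order are uncertain. In the other overlapping pairs the order was the same in each of the 5 libraries.

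**Figure D1:**
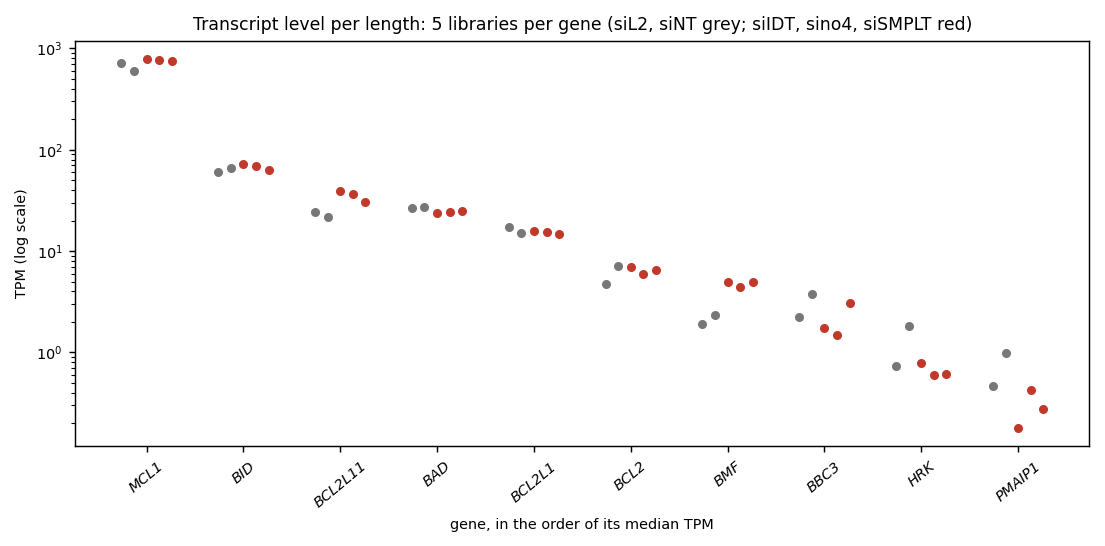
Level of the 10 BCL2 family genes in TPM on a log scale, with the genes in the order of their median and 1 point per library (controls grey, USP17 siRNA red). MCL1 lies between 596.4 and 783.1 TPM and no other gene exceeds 72.0 TPM.

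BMF and BCL2L11 rose with USP17 siRNA, and no other member passed the test. In edgeR's quasi-likelihood test over all 16341 tested genes, 2 of the 10 members passed an adjusted p of 0.05, both higher, while 10.5% of all tested genes passed, 4.64% higher and 5.82% lower. No member passed as lower, where 2 had an unadjusted p under 0.05 and DESeq2's Wald test called 1 and limma-voom 0. The share of all tested genes at that unadjusted cut is not given here, so such counts, also those below, lack a background. With 10 members the count of calls is small, and BMF and BCL2L11 were already known to be higher when the genes were chosen. The members' median log2 fold change was -0.04, beside 0.01 over all tested genes, and their range was -1.44 to 1.2. In bulk RNA, fewer cells with a transcript and less of it per cell cannot be told apart.

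BMF had the largest rise of the family. It encodes a BH3-only protein that is held on the actin cytoskeleton and released when cells detach. The gene (ENSG00000104081.14) lies on the minus strand of chromosome 15 from 40087890 to 40108892 (GRCh38). It measured 14, 12.0 and 14.6 CPM in siIDT, sino4 and siSMPLT and 4.99 and 6.74 CPM in siL2 and siNT. Each USP17 siRNA library was above both controls, and the controls differed by less than the groups did. The means were 13.5 ± 1.34 CPM (SD, n = 3) and 5.86 ± 1.24 CPM (SD, n = 2). This was a 2.3-fold difference (log2 fold change 1.2 ± 0.16 SE; Benjamini-Hochberg adjusted p = 0.00658 by edgeR). These values rest on 388 to 466 reads per USP17 siRNA library and 171 and 238 reads in the controls. BMF kept its call when any 1 library was left out, with log2 fold changes of 1.0 to 1.44.

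BCL2L11 rose less and from a higher level. It encodes BIM, a BH3-only protein that binds all survival members and activates BAX and BAK. The gene (ENSG00000153094.24) lies on the plus strand of chromosome 2 from 111119378 to 111168447. It measured 128.6, 122.3 and 101.0 CPM in siIDT, sino4 and siSMPLT against 79.4 and 72.4 CPM in siL2 and siNT. The groups did not overlap, and siSMPLT was the USP17 siRNA library nearest to the controls. The means were 117.3 ± 14.4 CPM (SD, n = 3) and 75.9 ± 4.95 CPM (SD, n = 2). The difference was 0.63 ± 0.11 (SE) on the log2 scale and passed (adjusted p = 0.0153 by edgeR). BCL2L11 lost its call when siIDT was left out (log2 fold change 0.56; adjusted p = 0.0597 by edgeR) or sino4 (0.60; 0.084).

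Because BMF and BCL2L11 rose together, the 250 bases before their annotated starts are shown, from RefSeq on GRCh38.p14, at chr15:40108880-40109129 (minus strand) and chr2:111120664-111120913 (plus strand). Capitals mark matches, on either strand, to the FOXO motif GTAAACA, the composite motif TGATGNAA bound by ATF4 and CHOP, the cAMP response motif TGACGTNA or the E-box CACGTG. FOXO factors are known activators of BCL2L11 when growth factor signalling falls.
BMF: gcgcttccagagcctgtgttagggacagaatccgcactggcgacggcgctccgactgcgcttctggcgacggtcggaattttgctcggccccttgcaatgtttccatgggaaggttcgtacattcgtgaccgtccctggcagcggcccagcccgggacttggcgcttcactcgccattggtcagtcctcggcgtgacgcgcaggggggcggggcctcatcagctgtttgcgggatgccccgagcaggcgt
BCL2L11: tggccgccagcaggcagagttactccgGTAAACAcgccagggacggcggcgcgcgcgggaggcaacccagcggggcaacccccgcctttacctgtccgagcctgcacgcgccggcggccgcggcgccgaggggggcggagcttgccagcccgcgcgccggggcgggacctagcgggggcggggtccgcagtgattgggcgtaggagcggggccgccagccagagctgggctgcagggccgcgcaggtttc
The BCL2L11 window held 1 FOXO match, at position -223 from the start, and the BMF window, like that of a further annotated BMF start, held none of the 4 motifs. The BCL2L11 window lies inside the gene's GENCODE span, which begins at 111119378, and the bases before that span were not searched. The cAMP response motif and the E-box share the letters ACGT. Of 35116 such windows across the genome, 3.0% held the FOXO motif, 3.1% the ATF4 and CHOP motif, 2.7% the cAMP response motif and 6.3% the E-box. A match describes letters only. FOXO3 measured 88.3, 86.8 and 91.6 CPM in siIDT, sino4 and siSMPLT and 81.2 and 92.1 CPM in siL2 and siNT, with a log2 fold change of 0.04 that was within the spread between libraries. FOXO1 (-0.10) and FOXO4 (0.06) did not pass either. These are RNA levels, and the activity of the FOXO proteins was not measured. The part of FOXO factors in the level of BCL2L11 was not tested.

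Among 12068 tested genes with a mean log2 CPM of at least 1, the closest in profile to BMF over the 5 libraries were TNC, ERC2, ENSG00000260793, SFMBT2 and SYNM. Closeness was the Euclidean distance of centred log2 CPM, which was 0.195 for TNC, an extracellular matrix protein, and 0.368 for SYNM. TNC measured 89.8, 81.3 and 82.9 CPM in siIDT, sino4 and siSMPLT and 29.8 and 42.7 CPM in siL2 and siNT. The closest to BCL2L11 were TMPO-AS1, PAX9, TRIM24, AK3 and LINC00680, at distances of 0.084 to 0.105. TRIM24, a transcriptional cofactor, measured 166.1, 159.0 and 140.1 CPM against 101.2 and 93.2 CPM. All these genes were picked for their likeness over these same libraries, so that likeness is no separate result.

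PMAIP1, HRK and BBC3 pointed the other way without passing the test, and each was highest in the siNT library. PMAIP1 encodes NOXA, which binds MCL1 and directs its breakdown. The gene (ENSG00000141682.12) lies on the plus strand of chromosome 18 from 59899948 to 59904306. It had 6, 17 and 11 reads in siIDT, sino4 and siSMPLT and 23 and 44 reads in siL2 and siNT. In CPM these were 0.184, 0.527 and 0.344 against 0.671 and 1.25, with no overlap between the groups and the highest value in siNT. The difference of -1.44 ± 0.44 (SE) on the log2 scale did not pass (adjusted p = 0.0716 by edgeR). Without siL2 it was -1.82 and passed (adjusted p 0.0296, edgeR), and without siNT it was -0.93 (0.264, edgeR).

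HRK encodes Harakiri, a BH3-only protein best known from neurons. The gene (ENSG00000135116.9) lies on the minus strand of chromosome 12 from 116856144 to 116881441. It measured 2.85, 2.23 and 2.66 CPM in siIDT, sino4 and siSMPLT against 3.09 CPM in siL2 and 7.02 CPM in siNT. The siL2 value lay just above the USP17 siRNA libraries, while siNT was more than any other library by a wide margin. The difference of -0.97 ± 0.31 (SE) on the log2 scale did not pass (adjusted p = 0.0816 by edgeR). It was -1.44 without siL2 (adjusted p 0.00244, edgeR) and -0.26 without siNT (0.424, edgeR), and DESeq2's Wald test called it (0.0282). BBC3 encodes PUMA, which binds all survival members. It measured 1.99, 1.70 and 3.53 CPM in siIDT, sino4 and siSMPLT and 2.71 and 4.59 CPM in siL2 and siNT. The groups overlapped, since siSMPLT lay above siL2, and the difference on the log2 scale was -0.60 ± 0.33 (SE; adjusted p = 0.272 by edgeR). It was -0.17 without siNT, -0.93 without siL2 and -0.98 without siSMPLT, and passed in none of these.

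The HRK start, whose window of 250 bases is shown from RefSeq on GRCh38.p14 at chr12:116881442-116881691 (minus strand), held the single ATF4 and CHOP match among the 9 members with a promoter entry, at position -75, in capitals.
HRK: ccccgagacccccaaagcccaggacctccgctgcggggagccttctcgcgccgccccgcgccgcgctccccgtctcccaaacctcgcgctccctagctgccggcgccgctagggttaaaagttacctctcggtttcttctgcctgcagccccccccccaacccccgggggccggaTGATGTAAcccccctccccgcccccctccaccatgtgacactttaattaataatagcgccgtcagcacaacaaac
ATF4, the transcription factor of the amino acid and unfolded protein stress responses, measured 397.7 CPM in siNT, 264.3 in siL2 and 205.9, 227.3 and 246.1 in siIDT, sino4 and siSMPLT. DDIT3, which encodes CHOP, measured 30.7 CPM in siNT, 13 in siL2 and 11.6, 11.3 and 13.2 in siIDT, sino4 and siSMPLT. Both were highest in siNT, as PMAIP1, HRK and BBC3 were. Neither passed edgeR's test (adjusted p 0.0568 for ATF4 and 0.097 for DDIT3), and their part in the levels of the 3 genes was not tested.

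BID and BAD did not pass the test. BID measured 51.9, 52.0 and 46.9 CPM in siIDT, sino4 and siSMPLT and 47.2 and 47.5 CPM in siL2 and siNT. The siSMPLT value was below both controls and the other USP17 siRNA values were above them, with a log2 fold change of 0.09 ± 0.08 (SE). BAD, which growth factor kinases hold inactive on 14-3-3 proteins, measured 12.9, 13 and 13.5 CPM against 14.9 CPM in each control. These groups did not overlap, but the log2 fold change of -0.18 ± 0.10 (SE) did not pass (adjusted p 0.259, edgeR).

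None of the 3 survival genes passed the test: 1, MCL1, had an unadjusted p under 0.05, and DESeq2's Wald test and limma-voom called 0. MCL1 (ENSG00000143384.14, minus strand of chromosome 1 from 150574551 to 150579738) measured 2092, 2120 and 2008 CPM in siIDT, sino4 and siSMPLT against 1969 and 1635 CPM in siL2 and siNT. Each USP17 siRNA library was above both controls, though siL2 lay close below siSMPLT. On the log2 scale the difference was 0.20 ± 0.08 (SE; adjusted p = 0.149 by edgeR). Without siL2 it was 0.34 (adjusted p 0.00832, edgeR), and without siNT it was 0.07 (0.414, edgeR).

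BCL2, the founding survival gene (ENSG00000171791.14, minus strand of chromosome 18 from 63123346 to 63320128), measured 30.8, 26.4 and 28.5 CPM in siIDT, sino4 and siSMPLT. The controls lay on either side of these values, at 21.4 CPM in siL2 and 32.1 CPM in siNT. The log2 fold change was 0.10 ± 0.16 (SE). It turned to -0.17 without siL2 (adjusted p 0.327, edgeR) and was 0.42, past the threshold, without siNT (0.0412, edgeR). BCL2L1, which encodes BCL-XL and its short proapoptotic splice form, measured 26.9, 27.5 and 26.7 CPM against 32.8 CPM in siL2 and 27.6 CPM in siNT. The siNT value was nearly that of sino4, and the log2 fold change was -0.16 ± 0.10 (SE, adjusted p 0.325, edgeR). Without siL2 it was -0.03 and without siNT -0.28, not past the threshold in either case. Gene totals do not separate the splice forms of BCL2L1, BCL2L11 or MCL1, whose products can differ in function.

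**Figure D2:**
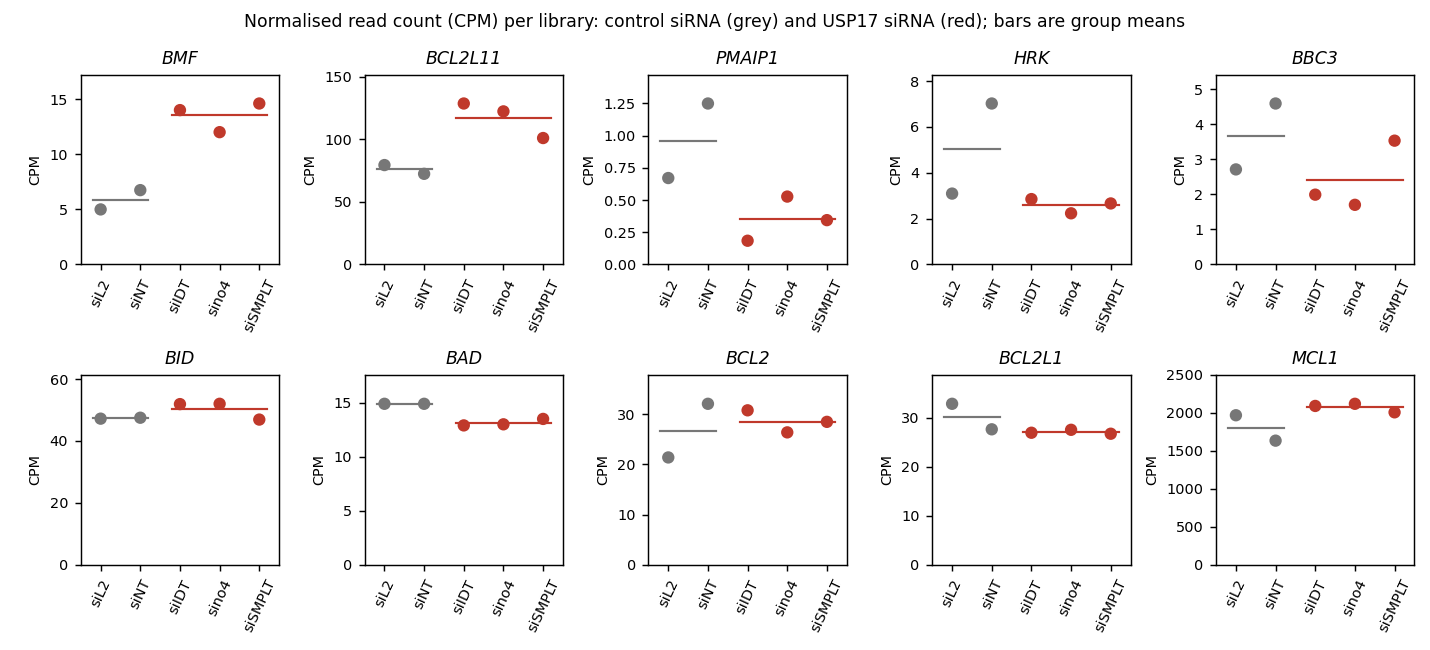
Normalised read count (CPM) of each member in each library, with controls in grey, USP17 siRNA in red and a bar at each group mean. BMF, BCL2L11 and MCL1 are above both controls in each USP17 siRNA library, and 45.9% of all tested genes show separation in either direction. HRK is below both controls, with siL2 at 3.09 CPM close to the USP17 siRNA values and siNT at 7.02 CPM. The BCL2 controls lie at 21.4 and 32.1 CPM on either side of the USP17 siRNA values.

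In all, 3 of the 10 members (BMF, BCL2L11 and MCL1) were above both controls in every USP17 siRNA library and 4 (PMAIP1, HRK, BAD and BCL2L1) were below both. Such separation was common: 45.9% of all tested genes showed it, 23.3% higher and 22.6% lower. The controls were farther apart than the group means in 5 of the 10 members, a share like that of all tested genes (50.6%). The median gap between siNT and siL2 on the log2 CPM scale was 0.349 over the members and 0.192 over all tested genes. It was widest for HRK, at 1.17 higher in siNT, followed by PMAIP1 at 0.84 and BBC3 at 0.74. For BMF it was 0.43, against 0.83 to 1.53 between any USP17 siRNA library and either control. For BCL2L11 siNT was lower than siL2, with a difference of -0.13, against 0.35 to 0.83 between USP17 siRNA libraries and controls.

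The number of members called moved with the libraries used. Without siIDT 1 member was called by edgeR (2.16% of all tested genes), and without sino4 1 (0.803%), BMF in each case. Without siSMPLT 2 were called (6.44%). Without siL2 5 were called (14.4%), BMF, BCL2L11 and MCL1 higher and PMAIP1 and HRK lower. Without siNT 3 were called (15.5%), BMF, BCL2L11 and BCL2, all higher. With DESeq2's Wald test on all libraries 3 were called (17.0%), with HRK lower beside BMF and BCL2L11.

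**Figure D3:**
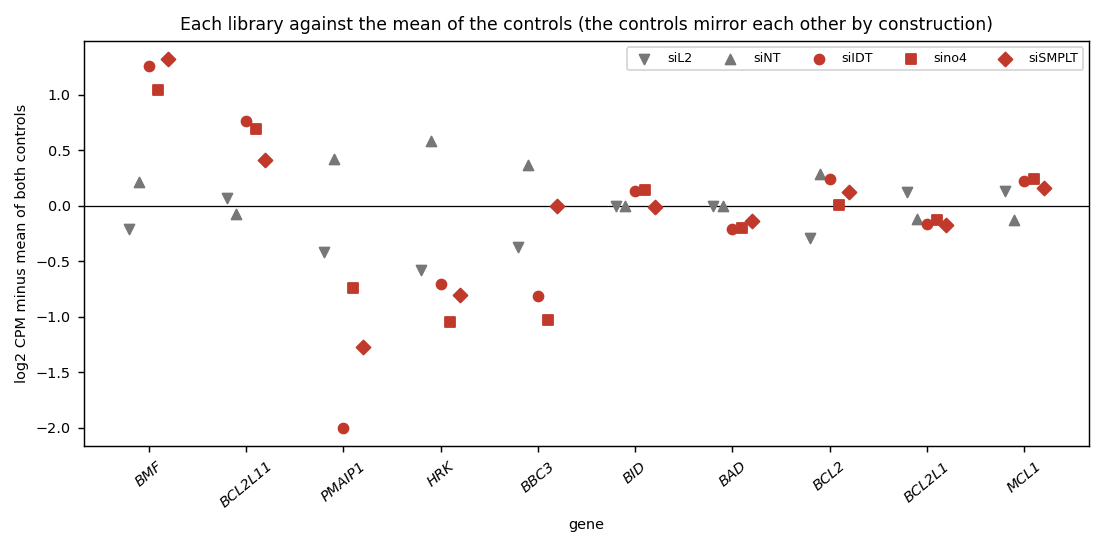
Log2 CPM of each library minus the mean of both controls for the 10 members, 1 symbol per library, so that the controls mirror each other around 0. The USP17 siRNA libraries lie 1.04 to 1.32 above 0 for BMF and 0.41 to 0.76 above it for BCL2L11, and spread from -2.0 to -0.74 for PMAIP1.

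The duplexes, each set against the mean of the same controls and without a test since each had 1 library, varied most for PMAIP1 and BBC3. For PMAIP1 the log2 differences were -2.0 in siIDT, -0.74 in sino4 and -1.27 in siSMPLT, at read counts of 17 or fewer. For BBC3 they were -0.81, -1.03 and 0.00. The USP17 siRNA libraries were closest for BCL2L1 (a range of 0.04 on the log2 scale), BAD (0.07) and MCL1 (0.08).

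Summed over the 7 BH3-only genes, transcripts came to 143, 138 and 128 TPM in siIDT, sino4 and siSMPLT and 117 and 124 TPM in siL2 and siNT. BMF and BCL2L11 together gave 44.4, 41.4 and 35.7 TPM in the USP17 siRNA libraries and 26.3 and 24.0 TPM in the controls. The share of BCL2L11 in the BH3-only sum was 24.0% to 27.5% against 17.5% and 20.8%, and that of BMF 3.24% to 3.86% against 1.62% and 1.88%. BID gave 49.7% to 53.1% of the sum in each library. For each 100 TPM from the 3 survival genes there were 17.8, 17.3 and 16.7 TPM of BH3-only transcripts in siIDT, sino4 and siSMPLT. These lay within the control values of 15.9 in siL2 and 20.0 in siNT. The higher BH3-only sum thus came with a survival sum of 768 to 806 TPM, against 740 and 619 TPM in the controls. These sums are descriptions and had no test.

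Short sequences were looked up in the 3' UTRs of the members, in the transcript with the longest one (GENCODE release 29). There was no siRNA sequence to compare them with. The 3 sequences of 7 bases were picked earlier on these same libraries for the shift of the genes that hold them, so they are no independent evidence. Among 12468 tested coding genes, the 7.9% with ATCACTC had a median log2 fold change of -0.12 (-0.01 in the others), and the 12.2% with TCACTCA one of -0.08. The 6.3% with GATCATC were higher in siNT than in siL2 by a median of 0.20 on the log2 scale (0.01 in the others). Of the 10 members only BMF and HRK held any of them. The sites, with the 7 bases in capitals, lie at chr15:40089439-40089465 for BMF and, for HRK, at chr12:116857599-116857625 and chr12:116858531-116858557, all on the minus strand.
BMF: agccaggaacTCACTCActgtcttaag
HRK, first site: gtgataaaatATCACTCtccctccctg
HRK, second site: aggcctctgaGATCATCgtttaggtag
BMF, with TCACTCA, had a log2 fold change of 1.2 between the groups, where the median of all carriers was -0.08. HRK held both ATCACTC and GATCATC. Its log2 fold change was -0.97, where the median was -0.12 for carriers of ATCACTC and 0.09 for those of GATCATC (-0.02 in the others). Between the controls HRK was higher in siNT by 1.17 on the log2 scale, and carriers of GATCATC by a median of 0.20. The part of the sites in these differences was not tested. BCL2L11, whose 3' UTR of 4480 bases was searched, held none.

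Beyond the members, 10 of 63 tested genes on 6 lists of the death pathway passed edgeR's test (15.9%, against 10.5% of all tested genes), 4 higher and 6 lower. None of the 10 passed without siIDT or without sino4, where 18 and 19 listed genes had an unadjusted p under 0.05 and no other tool was run. These unadjusted counts have no share of all tested genes beside them. Without siSMPLT RIPK1, FBXW7 and YWHAB alone kept their calls, without siNT BIRC3 and FBXW7 lost theirs, and without siL2 YWHAQ did. The effectors BAX and BAK1 did not pass. BAX, which forms the pore, measured 26.3 ± 0.893 CPM (SD, n = 3) against 25.1 ± 1.45 CPM (SD, n = 2), and BAK1 had a log2 fold change of -0.32 (adjusted p 0.114, edgeR). In the list of effectors and other BCL2 relatives 1 of 10 passed. This was BCL2L15, a little-studied relative, which fell from 5.57 to 3.20 CPM (log2 fold change -0.80, adjusted p 0.0178, edgeR). BCL2A1, BCL2L10 and BCL2L14 did not pass the filter on low counts.

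Downstream of the mitochondrion, 1 of 15 apoptosome and caspase genes passed. ENDOG, a mitochondrial nuclease, fell from 23.6 to 18.0 CPM (log2 fold change -0.39, adjusted p 0.0348, edgeR). APAF1, the scaffold of the apoptosome, had a log2 fold change of 0.12, with siL2 at 29.3 CPM and siNT at 51.4 CPM on either side of the USP17 siRNA values. CASP9 (-0.09) did not pass. DIABLO had 35 to 52 reads in the read counts but 92.9 to 103.4 TPM by RSEM, so its read counts do not measure its level. Among inhibitors of apoptosis 1 of 5 passed: BIRC3, a ubiquitin ligase of the NF-kappaB pathway, fell from 11.6 to 6.66 CPM (log2 fold change -0.80, adjusted p 0.0269, edgeR). XIAP, the direct caspase inhibitor, had a log2 fold change of 0.33 (adjusted p 0.0786, edgeR).

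Of 8 tested genes of the death receptor arm, 2 passed (25.0%, against 10.5% of all tested genes), both higher. Neither passed without siIDT or without sino4. RIPK1, a kinase of the receptor complexes, measured 14.3, 15.5 and 13.8 CPM in siIDT, sino4 and siSMPLT against 9.19 and 7.19 CPM in siL2 and siNT (log2 fold change 0.83, adjusted p 0.0127, edgeR). CFLAR, which encodes the caspase-8 inhibitor FLIP, measured 60.0, 60.8 and 62.5 CPM against 38.7 and 47.5 CPM (log2 fold change 0.50, adjusted p 0.0201, edgeR). Both were above both controls in each USP17 siRNA library. The receptors FAS, TNFRSF10A and TNFRSF10B had log2 fold changes of -0.11, 0.00 and 0.09, and none passed.

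Among 10 tested transcription factors known to act on BH3-only genes, 0 passed edgeR's test, 4 had an unadjusted p under 0.05, and DESeq2's Wald test called 2 and limma-voom 1. Without the share of all tested genes under that unadjusted cut, the 4 cannot be read as more than elsewhere. The smallest p values were those of MYC (log2 fold change -0.26, adjusted p 0.0519, edgeR) and ATF4 (-0.55, 0.0568). The MYC difference did pass by DESeq2's Wald test (0.0363) and by limma-voom (0.0494), and in edgeR with DESeq2 size factors (0.0489), no filter (0.043) or unstranded counts (0.0459). That of ATF4 passed by DESeq2's Wald test (0.00832) and in edgeR with no filter (0.0448). Without siL2 both passed in edgeR, MYC at -0.37 (0.00376) and ATF4 at -0.81 (0.00198), and without siNT they were -0.15 and -0.22 and did not pass.

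In the list of protein partners and turnover factors 5 of 15 passed (33.3%, against 10.5% of all tested genes), 2 higher and 3 lower. None of the 5 passed without siIDT or without sino4. FBXW7, which encodes a ubiquitin ligase receptor for MCL1 and MYC, measured 79.5, 72.5 and 58.6 CPM in siIDT, sino4 and siSMPLT against 50.5 and 44.8 CPM in siL2 and siNT (log2 fold change 0.56, adjusted p 0.0327, edgeR). MARCHF5, a mitochondrial ubiquitin ligase, rose from 61.8 to 100.5 CPM (0.70, adjusted p 0.0398), with controls at 47.4 and 76.2 CPM. Its log2 fold change was 0.40 without siL2 and 1.08 without siNT. VDAC2, the outer membrane channel that binds BAK, fell from 67.9 to 54.1 CPM (-0.33, adjusted p 0.032, edgeR). The 14-3-3 genes YWHAB (-0.35) and YWHAQ (-0.25) fell as well. DYNLL1, a dynein light chain that binds BIM, had a log2 fold change of 0.38 (adjusted p 0.0578, edgeR), and DYNLL2, which binds BMF, one of -0.04.

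**Figure D4:**
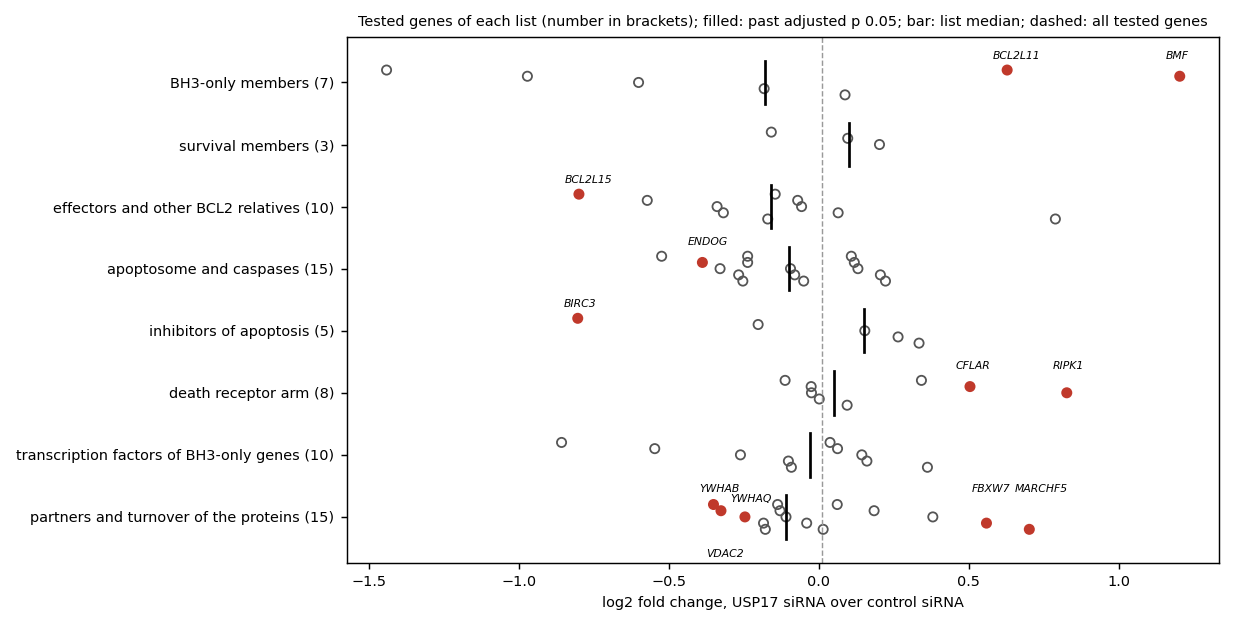
Log2 fold change of each tested gene, grouped by list, with genes past an adjusted p of 0.05 filled and named, a bar at each list's median and a dashed line at the median of all tested genes (0.01). List medians lie between -0.18 for the BH3-only members and 0.15 for the inhibitors of apoptosis.

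Overlap with genes on the opposite strand bore on the counts of some members when strand was ignored. The main counts used the gene's own strand. With reads counted regardless of strand, BAD kept 35.1% to 42.7% of the reads counted on its own strand, and 23.7% of its exonic bases are shared with GPR137 on the other strand. BCL2L1 kept 57.0% to 60.8% (shared with ABALON), BCL2L11 80.4% to 83.9% (MIR4435-2HG) and BMF 87.4% to 90.3% (BMF-AS1). Reads on the opposite strand came to at most 5.08% of those on the gene's strand for any member. BMF and BCL2L11 kept their calls with the count regardless of strand (adjusted p = 0.00824 and 0.0206 by edgeR) and with RSEM counts (0.012 and 0.0211, edgeR).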

How the data were processed

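RNA was analysed from 5 COLO 320DM libraries, 3 with USP17 siRNA and 2 with control siRNA. The submitters' processing notes name bcl2fastq 2.20, STAR 2.7.1a, RSEM 1.3.2 and GRCh38. Strand setting and annotation release: not given in the sources used here. Whole read counts for each gene were deposited by the authors in the format STAR writes. The column of the gene's own strand, which held 18.7 to 19.9 times as many reads as the other strand, was used, and rows that name no gene (22.8% to 24.4% of reads) were left out. The deposited RSEM tables give expected counts, which share out multi-mapping reads and were rounded here, and TPM. Symbols were found for 42061 of 60651 identifiers, and coordinates came from GENCODE release 29 on GRCh38.

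Counts were fitted with edgeR 4.0.16 in R 4.3.3 (filterByExpr with minimum count 10 and total 15, TMM, quasi-likelihood F test, two-sided, Benjamini-Hochberg adjustment over 16341 genes). Library-wise log2 CPM used a prior count of 2. In simulated data with 16341 genes and the same groups, 55.2% of 1.5-fold, 85.1% of 2-fold and 98.5% of 4-fold changes were recovered, and 13 of 172 calls (7.56%) were false. The changes were placed in a small part of the genes and in none as low as PMAIP1, so these rates do not cover it. Alternatives were DESeq2 1.42.0 (its size factors and its Wald test), limma-voom (limma 3.58.1), other filters, RSEM or unstranded counts, an adjusted p of 0.10, other prior counts and leaving out each library. The members and lists were chosen with earlier results of these data known. Named were all members, called genes of the 6 lists (or the 2 with the smallest p) and the 5 closest profiles. BAX, BAK1, BCL2L2, APAF1, CASP9, DIABLO, XIAP, the receptors, FOXO factors, DDIT3, DYNLL1 and DYNLL2 were named for their roles after their values were seen. RefSeq promoters were found for 9 of the 10 members. Some listed genes are not reported here by name.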

Additional observations from a re-analysis of the deposited data

How the results depend on the processing

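Across DESeq2 size factors, DESeq2's Wald test, limma-voom, both other filters, RSEM counts and unstranded counts, BMF (log2 fold change 1.17 to 1.21) and BCL2L11 (0.59 to 0.64) kept their direction and call. When 1 library was left out, the genes called ranged from 130 to 2633, the members called from 1 to 5 and the other pathway genes called from 0 to 18. A lone control was then assumed to vary like the USP17 siRNA libraries. At an adjusted p of 0.10 there were 3074 genes, 4 members and 20 pathway genes called. BCL2 turned to -0.17 without siL2 and reached 0.42 without siNT. Fewer libraries or the changed threshold enter these counts, and otherwise the cause was not tested. With RSEM counts MARCHF5 missed the threshold (adjusted p = 0.0533 by edgeR), as did ENDOG (0.0581) and YWHAQ (0.0508) without a filter. PMAIP1 has no adjusted p in DESeq2's Wald test and did not pass the filter of 1 CPM in 2 libraries, so that it has no value there. The share of MCL1 among the members was 82.6% with TPM and 82.8% with read counts per effective length. Other prior counts left the median distances of duplexes and of controls at 0.24 and 0.35. PMAIP1, at 6 to 44 reads, was the member most limited by depth. No paired analysis was possible because the numbers given to the libraries only name them in accession order.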
